A study of Drosophila melanogaster with 2 samples.

Results

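Translation factors and aminoacyl-tRNA synthetases were taken as the genes whose current symbol starts with eIF or eEF, or ends in RS or RS-m after an amino acid abbreviation. There were 74 of them among the 10844 genes that the arrays name: 37 initiation factors, 5 elongation factors, 18 cytosolic synthetases and 14 mitochondrial synthetases. The gene table lists 13 more genes with such symbols, among them the core factors eEF1alpha1, eEF2, eIF2alpha and eIF2gamma, which were not analysed here.

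Protein synthesis begins with initiation factors (eIF), which bring the small ribosomal subunit, the initiator tRNA and the capped mRNA together. Elongation factors (eEF) then deliver each charged tRNA and move the ribosome along the mRNA. Aminoacyl-tRNA synthetases attach each amino acid to its tRNA. For many amino acids, though not all, animals use separate nuclear genes for the enzymes of the cytosol and of the mitochondrion. The mitochondrial ones carry the suffix -m. The groups here follow that suffix alone, so a gene counted as cytosolic may also serve the mitochondrion. In the Drosophila egg most of these mRNAs are loaded by the mother, and every growing tissue of the embryo goes on using them.

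RNA came from homozygous tdf mutant embryos and from embryos of a yw stock, with 1 Affymetrix array each, to find genes that depend on the transcription factor TDF, also named Apontic (gene apt). Both were collected 16 h after egg laying at 25 °C. The tdf homozygotes were sorted with a CyO balancer chromosome that carries an actin-driven GFP marker. The allele, the number of embryos per extract and any sorting of yw embryos are not stated in the labels. The name yw stands for the pigment genes yellow and white, and the stock is not described as the parent of the tdf mutant. Differences between the stocks and effects of tdf therefore cannot be told apart. With 1 array a genotype there is no replicate, no test and no standard error, and every value below is a single measurement.

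Signals are MAS5 intensities on a linear scale. In parentheses, tdf and yw stand for the arrays with these labels. A gene was read by its brightest probe set, and signals under a floor of 97.3, the 40th percentile of gene probe sets over both arrays, were raised to it before a log2 ratio (tdf-labelled over yw) was taken. Where only 1 array was above the floor, the fold is a lower bound and is written "at least". A gene was measured where its higher signal reached the floor, as for 7639 of all genes. Among 278 genes with several probe sets above the floor, log2 ratios within a gene had an SD of 0.53 (0.51 over 32 genes whose probe sets averaged at least 1000). That spread describes the probe sets and not biological variation.

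The signal of apt was 1051 on the tdf-labelled array, against 979 on the yw array, and was thus no lower in the tdf sample. Since the labels do not place this probe set relative to the mutation, its signal cannot check the label. Of 11 markers of late embryonic cuticle and tanning 10 were measured, with signals from 148 to 57775 on the tdf-labelled array and from 186 to 41034 on the yw array, and 9 had a ratio above 0. The muscle myosin light chain gene Mlc2 had 49018 on the tdf-labelled array and 40667 on the yw array. Of 11 markers of the egg, germ line and early embryo 9 were measured. All 9 had a ratio below 0 and 7 were at least 2-fold lower, beside 47.6% and 6.19% of all measured genes. Only 3 of the 9 were above the floor on both arrays. The others passed the floor only through the yw array, so their ratios could only lie below 0. The summed signal of all 11 was 1758 on the tdf-labelled array and 14967 on the yw array, of which CycB alone gave 928 on the tdf-labelled array and 9664 on the yw array. None of the 11 had a listed signal of 0 on either array. The part of these maternal transcripts in the values below was not tested.

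Translation genes differed little between the arrays. Of the 74 genes, 63 were measured and 59 of these were above the floor on both arrays. By their brightest probe sets none of the 63 was at least 2-fold higher or lower on the tdf-labelled array, and another probe set of eIF5B was (at least 2.58-fold lower). Over all measured genes 3.60% were higher and 6.19% lower by that much, 9.79% in all. At a limit of 1.5-fold, 2 members were higher (13.2% of all measured genes were) and 3 were lower (15.3% of all were). These 5 members make up 7.94% of those measured, where 28.5% of all measured genes were 1.5-fold apart in either direction.

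The 5 genes, eIF3c, IleRS, CysRS-m, eIF3f2 and MetRS-m, were 2 genes of the eIF3 complex, 1 cytosolic synthetase and 2 mitochondrial synthetases. Log2 ratios scattered more among dim genes (SD 0.65 where the mean signal was under 1000, and 0.54 at or above it), so the 34 members at or above 1000 were also set beside the 1695 genes of that brightness. None of the 34 was 2-fold apart, where 6.84% of the 1695 were. Only eIF3c was 1.5-fold apart, where 20.5% of the 1695 were. The log2 ratios of the 63 members had an SD of 0.34 and quartiles of -0.21 and 0.23. Over all measured genes the SD was 0.62, with quartiles of -0.34 and 0.35.

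**Figure D1:**
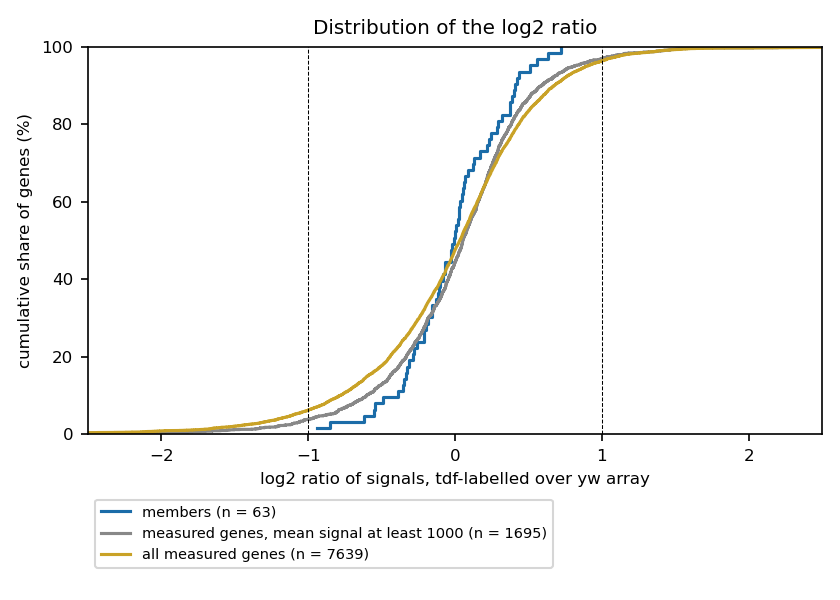
Cumulative share of genes (%) by log2 ratio of signals (tdf-labelled over yw array) for the 63 measured members, the 1695 genes whose mean signal was 1000 or more and all 7639 measured genes; dashed lines mark 2-fold. The curve of the members is the steepest and stays between -0.94 and 0.72.

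The median log2 ratio of the 63 members was -0.01, against 0.03 over all measured genes. By role it was -0.07 for 29 measured initiation factors, 0.05 for 5 elongation factors, -0.02 for 18 cytosolic synthetases and 0.29 for 11 mitochondrial synthetases. Each of these medians is smaller than the SD between probe sets of a gene. That SD describes single ratios and cannot serve as the error of a median. Ratios lay below 0 for 17 of the 29 initiation factors, 2 of the 5 elongation factors, 11 of the 18 cytosolic synthetases and 3 of the 11 mitochondrial synthetases, beside 47.6% of all measured genes. For eIF5B, TyrRS, MetRS-m and eIF3h another probe set gave the opposite sign. With those of eIF5B, TyrRS and MetRS-m the counts were 18 of 29 initiation factors, 10 of 18 cytosolic and 4 of 11 mitochondrial synthetases. The other probe set of eIF3h was not used in these counts. In whole embryos, fewer cells that use a gene and less of its RNA per cell cannot be told apart.

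**Figure D2:**
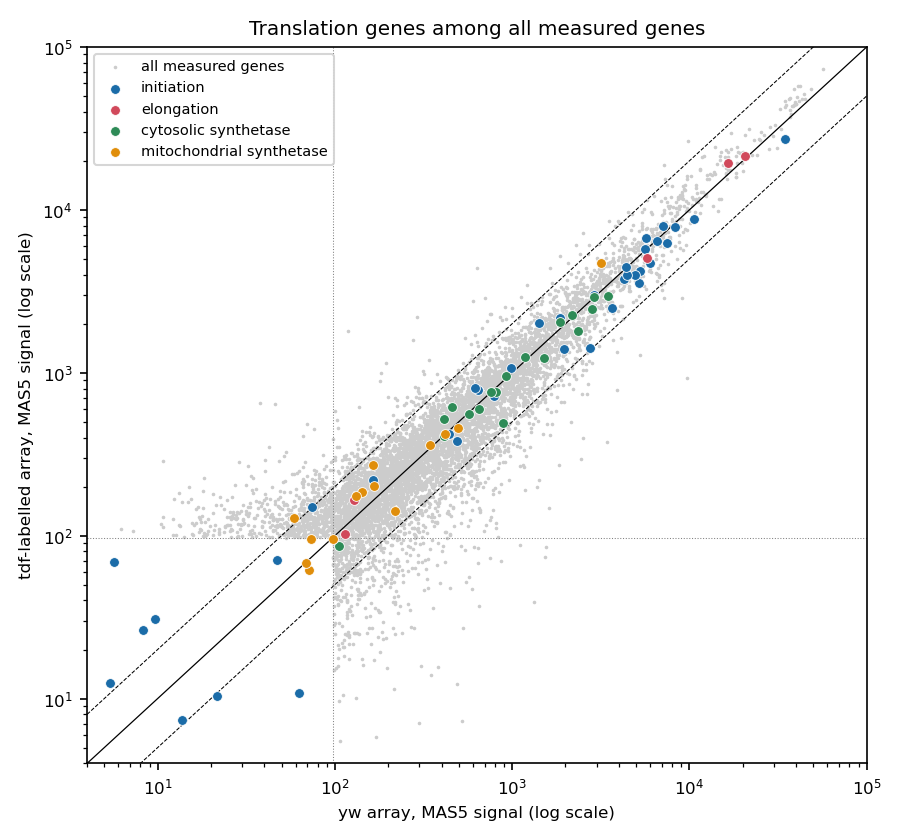
MAS5 signal on the tdf-labelled array (vertical) against the yw array (horizontal), both on log scales, for all measured genes (grey) and the 74 members coloured by role. The solid line marks equal signals, the dashed lines 2-fold and the dotted lines the floor of 97.3; the measured members lie between the dashed lines once signals are raised to the floor.

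The large complex eIF3 holds the small ribosomal subunit ready for mRNA. All 13 of its subunits from a to m were above the floor on both arrays. By their brightest probe sets 9 had a ratio below 0 and 4 above, with a median of -0.26. The lowest ratios were those of eIF3c, eIF3b and eIF3a, the large scaffold subunits of the complex. The signal of eIF3c was 1429 on the tdf-labelled array and 2747 on the yw array, 1.92-fold lower, which was the lowest ratio of any member (-0.94). The signal of eIF3b was 2485 on the tdf-labelled array and 3639 on the yw array, 1.46-fold lower. These ratios fall short of the 2-fold limit, and that of eIF3b is about the size of the SD between probe sets.

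The signal of eIF3a was 1389.99 on the tdf-labelled array and 1953 on the yw array, a log2 ratio of -0.49. Smaller differences in the same direction were found for eIF3l (tdf 4709, yw 5997), eIF3f1 (tdf 4208, yw 5278), eIF3e (tdf 8758, yw 10632.9) and eIF3m (tdf 6226, yw 7435). The RNA-binding subunit eIF3g1 (tdf 3999.5, yw 4448) and eIF3i (tdf 7885, yw 8265) were nearly equal on the arrays. Above 0 were eIF3h (tdf 5743, yw 5636), eIF3k (tdf 3010.6, yw 2895), the loosely bound eIF3j (tdf 2167, yw 1863) and eIF3d1 (tdf 6704, yw 5662). A dimmer probe set of eIF3h had a log2 ratio of -0.17. Log2 ratios within this single complex thus ran from -0.94 for eIF3c to 0.24 for eIF3d1. Across the 14 measured eIF3 genes, eIF3f2 included, the log2 ratio was lower where the gene's span in the genome, introns included, was longer (Pearson r -0.62 with log2 span, Spearman rho -0.56). The ratio of eIF3f2, the highest of the 14, is a bound. This gene passed the floor only through its signal on the tdf-labelled array, and the relation without it was not computed. The genes share the same arrays and are not independent, and over all 63 members r was 0.035 and rho -0.14.

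Second copies of 3 subunits were read as well. The signal of eIF3f2 was 151 on the tdf-labelled array and 74.2 on the yw array, at least 1.55-fold higher. The signals of eIF3d2 (tdf 31.0, yw 9.63) and eIF3g2 (tdf 26.2, yw 8.24) were under the floor on both arrays.

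The factor eIF2 carries the initiator tRNA, and of its subunits eIF2beta was read, with 7956 on the tdf-labelled array and 7075 on the yw array, a log2 ratio of 0.17. Its exchange factor eIF2B, which reloads eIF2 with GTP, had all 5 subunits measured, with log2 ratios from -0.35 to 0.39 and a median of -0.07. The catalytic subunit eIF2Bepsilon had 807 on the tdf-labelled array and 617 on the yw array. The gamma subunit, which pairs with it, had 382 on the tdf-labelled array and 488 on the yw array. The alpha subunit (tdf 423, yw 442), the beta subunit (tdf 1076, yw 989) and the delta subunit (tdf 718, yw 787) were within 1.10-fold, so the subunits of eIF2B did not shift in 1 direction.

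The cap-binding complex eIF4F joins the cap-binding protein eIF4E, the scaffold eIF4G and the RNA helicase eIF4A. The signal of eIF4E1, the general cap-binding protein, was 3980.5 on the tdf-labelled array and 4953 on the yw array, a log2 ratio of -0.32. The other family members read were under the floor on both arrays, namely eIF4E3 (tdf 10.4, yw 21.5), eIF4E4 (tdf 7.34, yw 13.7), eIF4E5 (tdf 12.5, yw 5.40), eIF4E6 (tdf 10.8, yw 63.0) and eIF4E7 (tdf 70.8, yw 47.2). No ratio is given for these. In Drosophila eIF4E3 is known for a role in the testis, as is the scaffold eIF4G2.

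The scaffold eIF4G1 had nearly the same signal on both arrays, 4490 on the tdf-labelled array and 4406 on the yw array. The signal of eIF4G2 was 219 on the tdf-labelled array and 164 on the yw array, a log2 ratio of 0.42. The helicase eIF4A had 27369.6 on the tdf-labelled array and 34419 on the yw array, 1.26-fold lower. The helicase cofactor eIF4H2 was under the floor on both arrays (tdf 68.8, yw 5.67).

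For eIF4A the arrays carry 3 further control probe sets along the transcript, which do not enter the gene values. The control at the 3' end had 30387 on the tdf-labelled array and 34508 on the yw array, the middle one tdf 12512 and yw 14361, and the one at the 5' end tdf 537 and yw 758. Their log2 ratios of -0.18, -0.20 and -0.50 and the -0.33 of the gene's own probe set all lie below 0. The signal at the 3' end divided by that at the 5' end, which reflects RNA quality, was 56.6 on the tdf-labelled array and 45.5 on the yw array for eIF4A. It was also higher on the tdf-labelled array for actin (tdf 52.3, yw 32.7) and 18S rRNA (tdf 32.2, yw 14.9), and lower for GAPDH (tdf 17.3, yw 22.8). On both arrays the 3' end of each of these controls was thus at least 14.9 times as bright as its 5' end. The part of RNA quality in the ratios of the members, those of eIF3 among them, was not tested.

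Among factors of start codon choice and subunit joining, eIF5, which makes eIF2 hydrolyse its GTP, had 3550.2 on the tdf-labelled array and 5186 on the yw array, 1.46-fold lower. The signal of eIF5B, the GTPase that joins the large ribosomal subunit, was 2028 on the tdf-labelled array and 1423 on the yw array in its brightest probe set, 1.43-fold higher. The start codon factor eIF1 was nearly equal on the arrays (tdf 6415, yw 6533), eIF2A was 1.15-fold lower (tdf 3745, yw 4299.8), and eIF6, which keeps large subunits from joining too early, was 1.22-fold higher (tdf 782, yw 641).

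**Figure D3:**
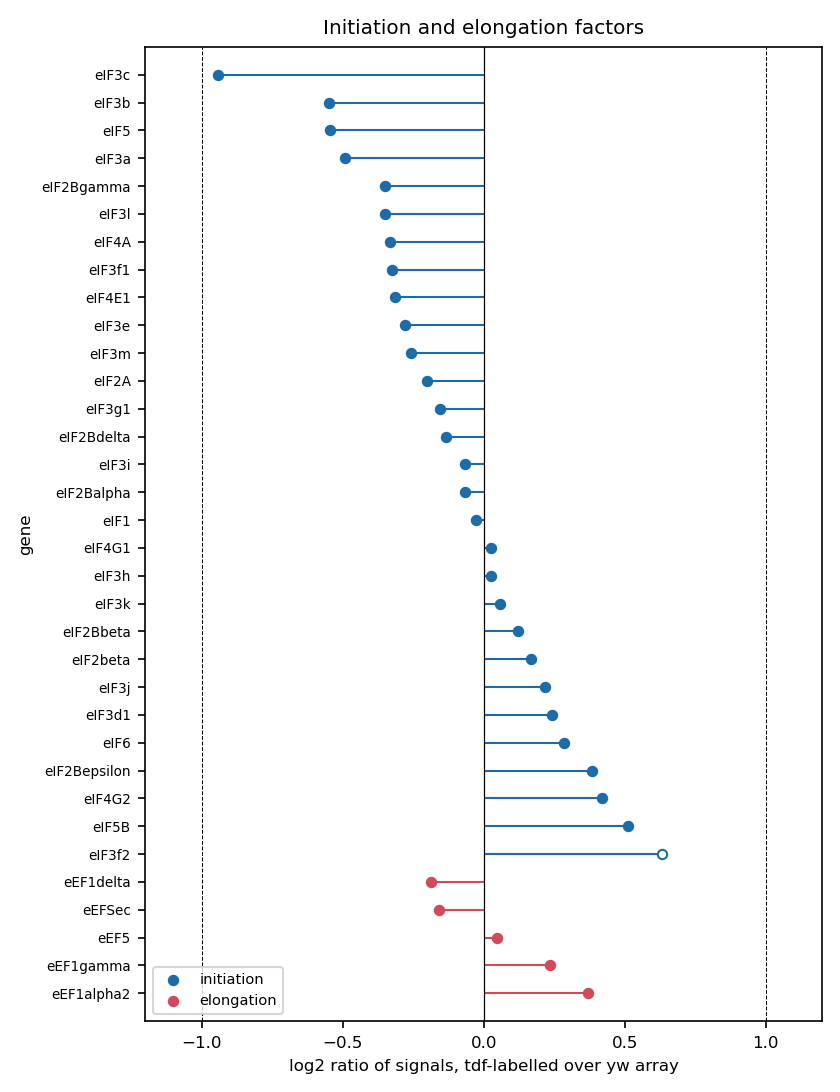
Log2 ratio of signals (tdf-labelled over yw array) of the 29 measured initiation factors and 5 elongation factors, 1 line per gene; open circles are bounds and dashed lines mark 2-fold. The ratios run from -0.94 (eIF3c) to 0.63 (eIF3f2), and none reaches a dashed line.

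All 5 elongation factors were measured and none was 1.5-fold apart, where 28.5% of all measured genes were. In so small a group this count says little. The eEF1 complex delivers charged tRNA to the ribosome. Of its subunits, eEF1gamma had 19518 on the tdf-labelled array and 16602 on the yw array. The subunit eEF1delta was read as well (tdf 5059, yw 5757), and eEF1beta was among the genes not analysed. The isoform eEF1alpha2 had 166 on the tdf-labelled array and 128 on the yw array, the highest ratio of the group at 0.37. The signal of eEF5, the hypusine-bearing factor long called eIF5A, was 21337 on the tdf-labelled array and 20643 on the yw array. The selenocysteine factor eEFSec was near the floor (tdf 102, yw 114). The median of this group was 0.05 but -0.16 under loess and -0.22 under quantile normalisation, and eEF1gamma itself had a log2 ratio of 0.23 but -0.07 under quantile normalisation, so the group has no settled direction.

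Cytosolic synthetases varied least among the larger groups, with an SD of 0.28 over 18 genes and quartiles of -0.19 and 0.06. IleRS, which charges isoleucine tRNA, stood apart at 491 on the tdf-labelled array and 884 on the yw array, 1.80-fold lower. The next lowest was ThrRS, with 1798 on the tdf-labelled array and 2356 on the yw array, 1.31-fold lower. The fused enzyme GluProRS, which charges both glutamate and proline tRNAs, had 1235 on the tdf-labelled array and 1503 on the yw array. These 3 had log2 ratios of -0.85, -0.39 and -0.28, and the other cytosolic enzymes lay between -0.21 and 0.43.

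At the upper end, TrpRS had 616 on the tdf-labelled array and 456 on the yw array, 1.35-fold higher. AlaRS had 518 on the tdf-labelled array and 415 on the yw array, 1.25-fold higher. Phenylalanine tRNA is charged by an enzyme of alpha and beta subunits, and both were nearly equal on the arrays, alpha-PheRS (tdf 1258, yw 1181) and beta-PheRS (tdf 559, yw 569). LysRS (tdf 2448, yw 2830.4) and TyrRS (tdf 2981, yw 3454) were slightly lower on the tdf-labelled array. AsnRS (tdf 2920, yw 2885) was nearly equal on the arrays, as were ValRS (tdf 408, yw 413) and GlnRS (tdf 761, yw 764).

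GlyRS (tdf 2267, yw 2163), SerRS (tdf 2045, yw 1868), HisRS (tdf 764, yw 807), ArgRS (tdf 601, yw 648) and LeuRS (tdf 952, yw 929) lay between -0.11 and 0.13 in log2 ratio. CysRS was the only cytosolic enzyme with an array under the floor, at 86.8 on the tdf-labelled array and 105 on the yw array, and is read by a probe set with a suffix letter, which may also bind other transcripts.

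Of 11 measured mitochondrial synthetases 8 were above 0, with a median of 0.29. With the other probe set of MetRS-m 7 of 11 were above 0 and the median was 0.059, and ProRS-m passed the floor only through its signal on the tdf-labelled array. The median over all measured genes whose mean signal was under 1000, where 10 of these 11 lie, was 0.02. MetRS-m had 272 on the tdf-labelled array and 165 on the yw array, 1.65-fold higher, but its second probe set had a log2 ratio of -0.25 and the mean of both had 0.29. PheRS-m, a single-chain enzyme unlike its cytosolic counterpart, had 4692 on the tdf-labelled array and 3190.4 on the yw array, 1.47-fold higher. LeuRS-m had 175 on the tdf-labelled array and 132 on the yw array, and AsnRS-m (tdf 185, yw 143) and TrpRS-m (tdf 202, yw 165) were likewise higher on the tdf-labelled array. ProRS-m was under the floor on the yw array, at 129 on the tdf-labelled array and 58.5 on the yw array, at least 1.32-fold higher.

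Close to equal were SerRS-m (tdf 418, yw 417), TyrRS-m (tdf 360.0, yw 346), AspRS-m (tdf 461, yw 494) and IleRS-m, which lay at the floor (tdf 94.8, yw 97.4). CysRS-m was the lowest of the measured ones, with 142 on the tdf-labelled array and 218 on the yw array, 1.53-fold lower. ArgRS-m (tdf 95.6, yw 73.6), GluRS-m (tdf 61.5, yw 71.4) and ValRS-m (tdf 67.6, yw 68.5) were under the floor on both arrays. The median of this group was 0.059 over the 5 enzymes left with a floor at the 60th percentile and 0.17 over 14 with a floor at the 25th, so its size depends on the floor.

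**Figure D4:**
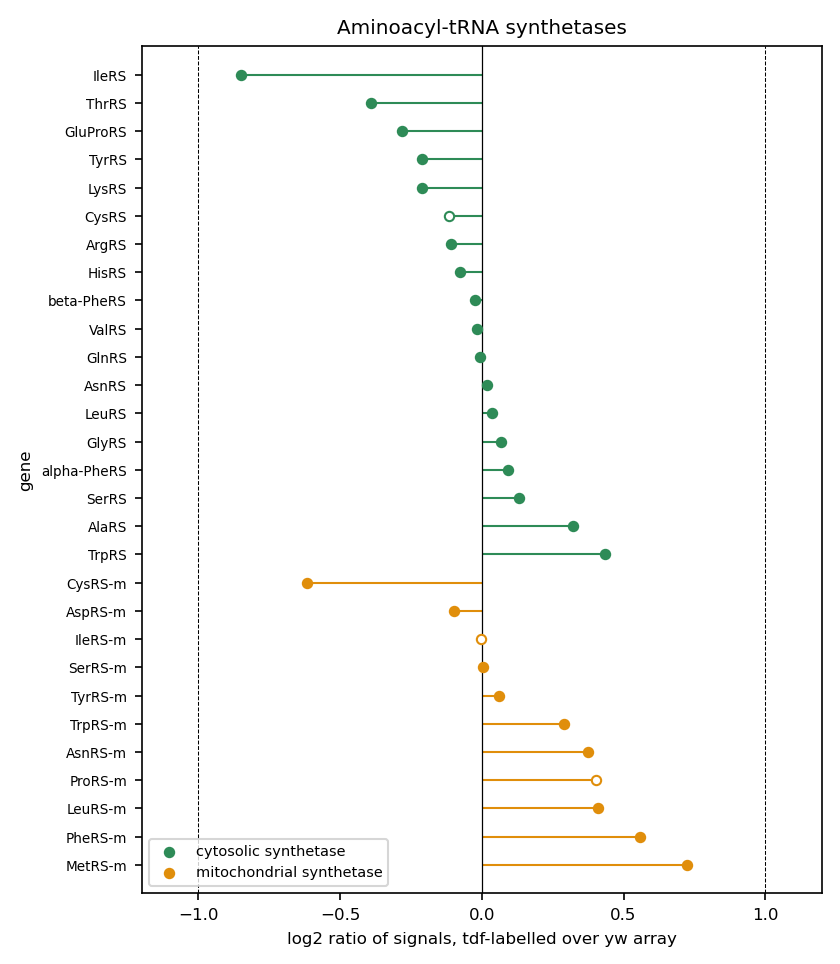
Log2 ratio of signals (tdf-labelled over yw array) of the 18 cytosolic and 11 measured mitochondrial synthetases, 1 line per gene; open circles are bounds and dashed lines mark 2-fold. Most cytosolic enzymes lie near 0, with IleRS at -0.85, and 8 mitochondrial enzymes lie above 0 by their brightest probe sets.

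For 9 amino acids both the cytosolic and the mitochondrial enzyme were on the array, and for 7 both were measured. The mitochondrial enzyme had the higher ratio for 4 of the 7 (isoleucine, leucine, asparagine and tyrosine) and the cytosolic enzyme for cysteine, tryptophan and serine. With the other probe set of TyrRS it was 3 of 7, and the second probe set of LeuRS (0.40) had nearly the same log2 ratio as LeuRS-m (0.41). The ratios of IleRS-m and CysRS are bounds set by the floor, and of the 5 pairs without them the mitochondrial enzyme had the higher ratio in 3.

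Several probe sets named 10 of the members, with 11 further probe sets in all, of which 5 were under the floor on both arrays. The others disagreed in part with the brightest one. A plain probe set of eIF5B had 68.6 on the tdf-labelled array and 251 on the yw array, at least 2.58-fold lower, while the pair of suffixed ones were 1.14-fold and 1.43-fold higher. The second probe set of MetRS-m (tdf 152, yw 181) had a log2 ratio of -0.25, where the brightest had 0.72. The second probe set of TyrRS (tdf 162, yw 102) had a log2 ratio of 0.67, where the brightest had -0.21. For LeuRS the second log2 ratio was 0.40 where the brightest had 0.03, and for eIF3h it was -0.17 where the brightest had 0.03. The directions of eIF5B, MetRS-m, TyrRS and eIF3h are therefore uncertain.

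**Figure D5:**
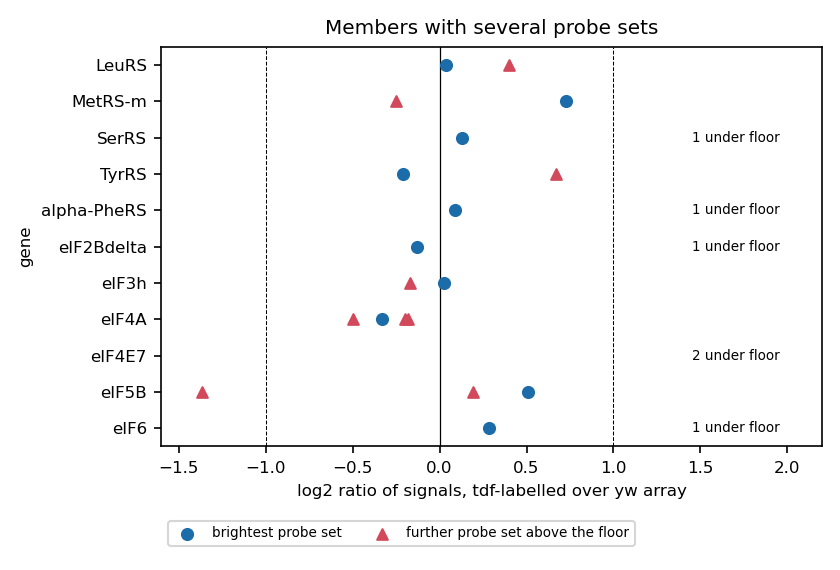
Log2 ratio of signals (tdf-labelled over yw array) of each probe set of the 10 members with several, and of eIF4A with its 3 control probe sets; circles are the brightest probe set of a gene, triangles further ones above the floor on at least 1 array, and dashed lines mark 2-fold. Probe sets of eIF4A lie together below 0, while those of eIF5B, MetRS-m, TyrRS and eIF3h lie on both sides of 0.

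Genes that act beside the members were read from short lists. Of 4 measured release and rescue factors none was 2-fold apart, beside 9.79% of all measured genes, and their median was 0.01. The termination factor eRF1 had 6104 on the tdf-labelled array and 5745 on the yw array. The stalled-ribosome factor pelo (tdf 607, yw 404) had a log2 ratio of 0.59. That of its partner HBS1 (tdf 412, yw 487) was -0.24 by the brighter of 2 probe sets. Of the 3 proteins that hold synthetases together, AIMP1 had 564 on the tdf-labelled array and 715 on the yw array. AIMP3 (tdf 623, yw 520.3) was slightly higher on the tdf-labelled array and AIMP2 (tdf 5450, yw 5720.5) was nearly equal.

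Of 7 mitochondrial translation factors 6 were measured, with a median of 0.23. None of these was 2-fold apart, beside 9.79% of all measured genes. The ribosome recycling factor mRRF1 had 521 on the tdf-labelled array and 276 on the yw array, 1.89-fold higher. The translocation factor mEFG1 had 415 on the tdf-labelled array and 760.3 on the yw array, 1.83-fold lower. These factors thus went both ways.

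Of 11 measured regulators of translation 1 was at least 2-fold higher and none at least 2-fold lower, beside 3.60% and 6.19% of all measured genes. That gene was raptor, a subunit of the growth kinase complex TORC1, with 264 on the tdf-labelled array and 109 on the yw array, 2.41-fold higher. The S6 kinase gene S6k, a target of TORC1, had 1349 on the tdf-labelled array and 869 on the yw array, 1.55-fold higher. Tsc1, an inhibitor of TORC1, had 49.2 on the tdf-labelled array and 182 on the yw array, at least 1.87-fold lower. The eIF2alpha kinase Gcn2 had 85.0 on the tdf-labelled array and 178 on the yw array, at least 1.83-fold lower, whereas crc, the Drosophila ATF4, which is translated when eIF2alpha is phosphorylated, was equal on the arrays (tdf 11177, yw 11132). The poly(A)-binding protein pAbp had 14249 on the tdf-labelled array and 9506 on the yw array, a log2 ratio of 0.58, and its inhibitor Paip2 (tdf 579, yw 1040.4) was 1.80-fold lower. The remaining regulators had smaller log2 ratios, at 0.29 for larp, -0.06 for Lk6, -0.21 for gig and -0.37 for PEK. For pAbp, larp and Lk6, which have 2 probe sets each, only the brighter is given. The log2 ratios of the 11 regulators had a median of -0.06 and an SD of 0.70, beside an SD of 0.62 over all measured genes. The members had the narrower spread, with an SD of 0.34. These differences in spread were not tested.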

How the data were processed

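The authors deposited MAS5 signals, per the submitters' processing notes: 1 intensity per probe set on a linear scale. Version, target signal and genome build are not stated in the labels. Both arrays had a mean signal of 500.1 once 2% of probe sets at each end were trimmed, so each had been given a single scaling factor. The method subtracts mismatch signal, which leaves dim probe sets noisy.

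Of 13966 gene probe sets, 12443 named 1 gene, and the 327 that named several were not used. Symbols were updated by gene ID to RefSeq (Release 6 plus ISO1 MT) for 12394 probe sets. The number of arrays (1 a genotype) limits the precision, and no test was made. The steps were tested on simulated arrays. The members, gene lists and alternatives were chosen with earlier results of these data known. Genes named are, in each role group, the 4 with the largest ratios in size and the 3 brightest, every eIF2, eIF4E and eEF1 gene, members with a probe set 2-fold apart, and the 2 largest ratios of each related list; the others were named after their values were seen.

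Alternatives were centring, quantile normalisation, loess (span 0.3), lower and higher floors (25th and 60th percentile), log2(signal + 100), the mean of all probe sets, plain probe sets, other fold limits, members with neither array under the floor and, added later, members with a mean signal of at least 1000 and the other probe sets of 3 members. Python 3.11.15, numpy 2.4.6, pandas 2.3.3, statsmodels 0.14.6 and matplotlib 3.10.9 were used.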

Additional observations from a re-analysis of the deposited data

How the results depend on the processing

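No paired analysis was possible because each genotype has 1 array. No member was 2-fold apart under centring, quantile normalisation, loess, a floor at the 60th percentile, log2(signal + 100), the mean of probe sets or a limit of 3-fold. With a floor at the 25th percentile 2 were higher (ProRS-m at a log2 ratio of 1.14 and eIF3f2 at 1.02), with plain probe sets only 1 was lower (eIF5B at -1.37), and at 1.5-fold 2 were higher and 3 lower. Over all genes, those higher and lower numbered 607 and 683 with a floor at the 25th percentile, 119 and 267 at the 60th, 137 and 290 with log2(signal + 100), 1005 and 1171 at 1.5-fold and 35 and 136 at 3-fold. The median of eIF3 subunits a to m was -0.38 under loess and -0.36 under quantile normalisation, against -0.26 as reported, and the elongation median -0.16 under loess and -0.22 under quantile normalisation. The mitochondrial synthetase median was 0.17 and 0.059 with floors at the 25th and 60th percentile and 0.19 with log2(signal + 100). Members with a mean signal of at least 1000 were chosen after the data were examined. Over these the median was -0.11 for all members, -0.18 for initiation factors and 0.56 for the 1 mitochondrial enzyme left. It was 0.05 over all 1695 genes of that brightness. Across the 63 measured members the log2 ratio was lower where the mean signal was higher (Pearson r -0.31 with log2 signal, Spearman rho -0.31). With the other probe sets of eIF5B, MetRS-m and TyrRS, also chosen afterwards, 1 member was 2-fold lower (eIF5B) and the mitochondrial synthetase median was 0.059. The cytosolic synthetase median, -0.02, was 0.03 under quantile normalisation. Single members had 491 values under centring, quantile normalisation, loess, both other floors, log2(signal + 100), the mean of probe sets and plain probe sets. Of these, 21 turned the sign of the log2 ratio, and 2 of the 21 were at least 0.2 in size as reported (eEF1gamma and eIF5B). The values with the other probe sets, which also turned MetRS-m and TyrRS, are not among the 491. Dim probe sets near the floor limit the mitochondrial enzymes and the second copies.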
